A study of Mus musculus with 4 samples.

Results

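The nuclear genes of oxidative phosphorylation were taken by name: rows of the deposited expression table whose symbol begins as a subunit of complex I (Ndufa, Ndufb, Ndufc, Ndufs or Ndufv), complex II (Sdha to Sdhd), complex III (Uqcr), complex IV (Cox4 to Cox8) or complex V (Atp5), pseudogene symbols excluded. Of 23240 rows, 85 matched, and the 79 with a mean of at least 1 RPKM (read number relative to gene length and library depth) are described as members. They comprised 36 genes of complex I, 4 of complex II, 8 of complex III, 14 of complex IV and 17 of complex V. The rule uses the name and the mean level and no response to treatment or genotype. The name rule also takes in 3 genes that RefSeq now names as something other than a subunit, Cox4nb (Emc8), Atp5s (Dmac2l) and Atp5sl (Dmac2), so 76 members carry a subunit name. Ndufa4 is kept with complex I by its name, although its protein is now regarded as a subunit of complex IV.

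RNA was sequenced from bone marrow cells of leukaemic mice, sorted as GFP and BFP positive and CD11b and Gr1 negative, and the cell type is labelled RUNX1-FLT3ITD_AML, an acute myeloid leukaemia. The cells had been kept for 22 h in SFEM medium plus FLT3L, SCF, IL3 and IL11, which are cytokines, with either 200 nM 4OHT or as much of the solvent ethanol (EtOH). 4OHT, or 4-hydroxytamoxifen, is an oestrogen receptor ligand that is often used to turn on engineered fusion proteins; its target in these cells is not named in the labels. Of the 4 libraries, replicate 1 came from Runx1 delta/delta cells and replicate 2 from Runx1 delta/+ cells, with 1 EtOH and 1 4OHT library for each. By the labels all 4 share the leukaemia and at least 1 deleted Runx1 allele, and no library with 2 intact alleles was analysed here. Runx1 itself stood at 568 and 380 RPKM in the libraries labelled delta/delta and at 555 and 328 RPKM in those labelled delta/+. Its level did not go with the deletion label and was not called between the genotypes (log2 difference 0.12, limma adjusted p = 0.491). With 4OHT it was called lower (log2 change -0.67, limma adjusted p = 0.0129), and it fell in both genotypes. Which part of the gene was deleted is not stated, and with 1 value for the whole gene the genotype labels could not be checked. Every combination of treatment and genotype is a single library, and nothing in the labels says that the libraries came from separate animals or cultures. Values for a gene are given below in the order EtOH then 4OHT in delta/delta, and EtOH then 4OHT in delta/+.

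In oxidative phosphorylation, electrons from NADH enter complex I and electrons from succinate enter complex II. They pass through ubiquinone, complex III and cytochrome c to complex IV, which reduces oxygen. Complexes I, III and IV pump protons across the inner mitochondrial membrane, and complex V (ATP synthase) lets them back to make ATP. Most subunits are nuclear encoded and a smaller set, which is not analysed here, comes from the mitochondrial genome. The promoters of the nuclear genes are known for sites of NRF1, of ETS factors such as GABP and of YY1. In blood, red cell precursors need mitochondria for haem synthesis and lose them on maturing, and leukaemic blasts are known to rely strongly on respiration.

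The promoters of 5 members are shown, since the results turn on the first 4, whose transcripts changed with 4OHT, and since Cox6a1 was the most abundant member of complex IV. Each sequence is from RefSeq on build GRCm38.p6 and runs 5′ to 3′ on the gene's strand from 250 bases before the annotated start to 50 bases after it. The windows are chr7:30183921-30184220 on the plus strand for Cox7a1, and on the minus strand chr9:79759804-79760103 for Cox7a2, chr16:37654319-37654618 for Ndufb4, chr9:50603800-50604099 for Sdhd and chr5:115348909-115349208 for Cox6a1. Capitals mark matches to the motif letters searched for.
Cox7a1: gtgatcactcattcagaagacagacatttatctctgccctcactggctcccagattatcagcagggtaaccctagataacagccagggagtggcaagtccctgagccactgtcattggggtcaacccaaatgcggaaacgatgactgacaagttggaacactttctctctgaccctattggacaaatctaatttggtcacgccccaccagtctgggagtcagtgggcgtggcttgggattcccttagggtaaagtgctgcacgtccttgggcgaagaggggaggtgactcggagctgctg
Cox7a2: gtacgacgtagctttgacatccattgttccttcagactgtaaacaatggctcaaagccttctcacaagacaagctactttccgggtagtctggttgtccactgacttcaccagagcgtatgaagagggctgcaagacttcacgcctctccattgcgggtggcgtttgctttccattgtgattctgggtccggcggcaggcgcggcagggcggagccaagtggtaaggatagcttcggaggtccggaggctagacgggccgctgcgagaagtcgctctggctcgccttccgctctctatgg
Ndufb4: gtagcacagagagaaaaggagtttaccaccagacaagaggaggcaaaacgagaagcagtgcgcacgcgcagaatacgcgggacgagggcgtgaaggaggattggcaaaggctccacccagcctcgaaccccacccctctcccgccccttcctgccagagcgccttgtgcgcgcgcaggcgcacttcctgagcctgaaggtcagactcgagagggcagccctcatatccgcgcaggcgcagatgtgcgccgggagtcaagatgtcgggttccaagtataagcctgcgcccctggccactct
Sdhd: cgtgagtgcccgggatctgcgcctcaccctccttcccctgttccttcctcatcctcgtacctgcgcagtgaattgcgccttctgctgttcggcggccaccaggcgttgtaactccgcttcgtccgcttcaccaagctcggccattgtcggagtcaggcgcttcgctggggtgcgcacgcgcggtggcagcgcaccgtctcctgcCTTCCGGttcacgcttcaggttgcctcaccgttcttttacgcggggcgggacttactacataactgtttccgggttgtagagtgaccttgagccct
Cox6a1: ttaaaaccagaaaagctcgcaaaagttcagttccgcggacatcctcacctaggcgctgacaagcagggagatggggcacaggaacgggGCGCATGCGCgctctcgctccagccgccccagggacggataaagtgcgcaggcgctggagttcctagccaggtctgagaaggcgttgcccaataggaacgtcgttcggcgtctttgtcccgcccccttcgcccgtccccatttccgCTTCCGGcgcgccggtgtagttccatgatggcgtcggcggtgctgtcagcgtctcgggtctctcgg

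Motifs were searched on both strands as GCGCATGC for NRF1, CCGGAAG for ETS factors and AAGATGGCG for YY1. Cox7a1, Cox7a2 and Ndufb4 held none of them in these windows. Sdhd held the ETS letters on its other strand, with its first base at -46 from the start. Cox6a1 held the ETS letters on its other strand, with its first base at -16 from the start, and a run that reads as the NRF1 letters on both strands, so its 2 NRF1 matches overlap (first bases at -162 and -160 from the start). A promoter sequence was matched for 67 of the 79 members, and 28 of these 67 held at least 1 of the motifs. Each gene was counted once, as holding a motif if any of its promoter windows did. The NRF1 letters were in 10 of 67 members (14.9%), against 6.75% of 7782 tested genes with a sequence and 3.05% of all 27025 genes with a sequence. The YY1 letters were in 8 members (11.9%), against 4.36% and 1.64%. The ETS letters were in 16 members (23.9%), against 23.6% of tested genes and 9.93% of all genes with a sequence. A match describes letters and is not evidence of binding.

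Depth recovered from the steps of the RPKM values was 34.6, 36.7, 33.7 and 39.4 M mapped reads. Markers of red cell precursors differed most between the treatments among the marker lists: 19 of 20 were called lower with 4OHT, where 10.2% of all genes were. The other, Hba-a1, fell in both genotypes without a call (5277, 1971, 922 and 753 RPKM, limma adjusted p = 0.0564). Of the 20, 0 were at 0 in every library, and their summed RPKM was 35813 to 66214 in EtOH against 3939 to 5549 in 4OHT. They took 6.05% and 3.21% of mapped reads in the EtOH libraries and 0.653% and 0.496% in the 4OHT libraries. The median change of all 9595 genes tested was 0.16 on the log2 scale, and it moved to -0.04 when libraries were scaled by the median of their ratios, so changes of the members are read relative to that of all genes. Of markers of myeloid progenitors, Kit stood at 0.0781, 1.61, 0.0973 and 0.740 RPKM, and Cd34 and Mpo stayed under 0.6 RPKM in every library. Others of the same list were well measured: Myb stood at 17.0, 99.2, 37.5 and 84.5 RPKM, Flt3 at 12.6, 16.8, 46.3 and 39.7 RPKM, Sfpi1 at 21.5, 20.7, 18.8 and 3.58 RPKM and Cebpa at 1.08, 10.3, 1.10 and 4.84 RPKM, of which Myb and Cebpa rose with 4OHT. In bulk samples, fewer cells of a type and less RNA per cell cannot be told apart.

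The members were among the more abundant transcripts of these cells. Their median level was 112, 124, 99.9 and 108 RPKM in the 4 libraries, against 11.6, 12.99, 12.3 and 13.4 RPKM for all genes tested. By mean level, 74 of 79 stood above the median gene and 52 were in the top 10% (76.2 RPKM or more). The highest was Atp5b, the catalytic beta subunit of ATP synthase, with 606, 783, 692 and 785 RPKM. The lowest was Atp5s, known as coupling factor B and now named Dmac2l, with 3.54, 2.92, 4.49 and 3.71 RPKM. Together the members held 2.46%, 2.90%, 2.45% and 2.75% of summed RPKM. Their read numbers per library ran from 27 (Cox7a1) to 58115 (Atp5b), so counting error is small for most of them.

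The first comparison, 4OHT against EtOH, asks which transcripts differed after 22 h of 4OHT. Most genes of oxidative phosphorylation moved little. By limma with Benjamini-Hochberg adjustment over all genes tested, 7 of 79 members passed an adjusted p of 0.05, 5 higher and 2 lower with 4OHT, where 32.4% of all genes passed (22.2% higher and 10.2% lower). Without rescaling of the libraries, the fitted change lay within 0.25 of 0 on the log2 scale for 58 members (73.4%), against 38.4% of all genes. Cox7a1 was the only member whose fitted change reached 2-fold. The median change of the members was 0.13, against 0.16 for all genes, and with median-ratio scaling both medians turned negative, to -0.09 and -0.04. In both genotypes 47 members were higher with 4OHT and 13 were lower, and 19 went opposite ways. Of the 9595 genes tested, 5234 were higher and 2567 lower in both, and 1794 went opposite ways. The fitted change was above 0 for 61 members (6151 of all 9595 genes), but for 24 members with median-ratio scaling. The genes that passed were the isoform gene Cox7a1, Sdhd, Atp5sl, Atp5g1 and Ndufa10, all higher, and Ndufb4 and Cox7a2, both lower. Without the genotype term Cox7a1 alone passed, where 2.43% of all genes did. With no filter on low values Cox7a1, Sdhd and Ndufb4 passed, where 13.3% of all genes in that fit did. With erythroid genes left out of the scaling 6 of the 7 passed, where 29.6% of all genes did. With median-ratio scaling Cox7a1, Cox7a2 and Ndufb4 passed, where 32.6% of all genes passed (15.3% higher and 17.4% lower).

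**Figure D1:**
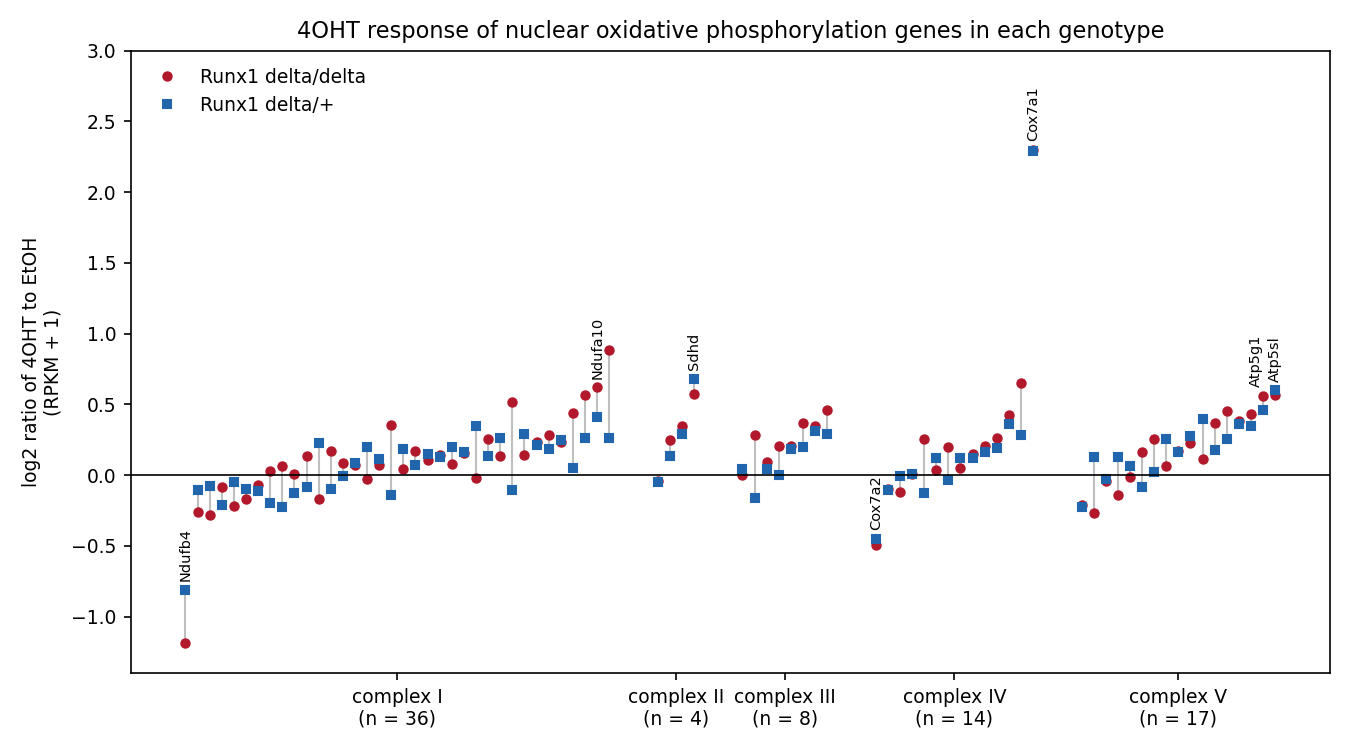
Log2 ratio of 4OHT to EtOH, on RPKM + 1, for the 79 members ordered within complexes I to V, with circles for Runx1 delta/delta and squares for Runx1 delta/+; a grey line joins the values of a gene and names mark the 7 genes that passed the test. Most points lie near 0 in both genotypes, Cox7a1 stands far above and Ndufb4 lowest; with median-ratio scaling the median of the members turns from 0.13 to -0.09.

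Complex I, which takes electrons from NADH, was the largest group and had 1 member higher and 1 lower of 36. Its median change was 0.11, and 32 of its members lay within 0.25 of 0. With median-ratio scaling the median turned to -0.11 and fewer members lay within that bound. Ndufa1, Ndufa13 and Ndufb11 then stood at -0.40, -0.40 and -0.37, and Ndufa12 at 0.35. Ndufb4, an accessory subunit of the membrane arm, stood at 73.7, 31.8, 95.5 and 54.0 RPKM. Both 4OHT libraries lay below both EtOH libraries. It fell by 0.999 on the log2 scale (SE 0.15, lower in both genotypes, limma adjusted p = 0.00967), and lost its call without the genotype term. A near copy, Ndufb4c, is annotated in the mouse genome and has no row in the table, and where its reads were counted is not known here. Ndufa10, an accessory subunit with a fold like that of nucleoside kinases, stood at 47.6, 73.7, 69.6 and 92.7 RPKM. It was higher with 4OHT in each genotype, and the treatments did not overlap, though the EtOH library of delta/+ lay close to the 4OHT library of delta/delta. Its log2 change was 0.51 (SE 0.14, limma adjusted p = 0.0395). Ndufa10 lost its call with median-ratio scaling and when erythroid genes were left out of the scaling. The call was also lost with no filter on low values, without the genotype term and with no trend in the prior.

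The remaining members of complex I did not pass. Ndufa12, an accessory subunit of the matrix arm, had the largest uncalled change of the members of complex I: it stood at 121, 225, 113 and 136 RPKM (log2 change 0.57 with SE 0.18, limma adjusted p = 0.0614). The difference was larger in delta/delta (0.88) than in delta/+ (0.26), which was not tested. Among the 7 core subunits, which hold the flavin and iron-sulphur clusters, Ndufv2 stood at 48.8, 72.9, 49.5 and 59.8 RPKM (log2 change 0.42, limma adjusted p = 0.0791). The flavin-binding Ndufv1 stood at 67.0, 79.02, 57.3 and 66.5 RPKM, and Ndufs1, the largest core subunit, at 30.3, 31.2, 44.1 and 50.2 RPKM. The most abundant members were Ndufb9, at 288, 275, 195 and 181 RPKM, and Ndufa6, at 271, 277, 180 and 157 RPKM, both accessory subunits, with no call for 4OHT. The least abundant were Ndufs4, whose loss in mice gives a Leigh-like disease, at 10.6, 10.3, 11.3 and 13.1 RPKM, and Ndufc1, at 11.8, 17.3, 17.3 and 15.997 RPKM.

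Complex II, succinate dehydrogenase, is shared with the citric acid cycle and has no subunit from the mitochondrial genome. Of its 4 genes 1 passed, Sdhd, which encodes the smaller of the membrane anchors. Sdhd stood at 32.6, 49.1, 29.4 and 47.7 RPKM, with both 4OHT libraries above both EtOH libraries. It rose by 0.63 on the log2 scale (SE 0.13, limma adjusted p = 0.0219), and lost its call with median-ratio scaling and without the genotype term. The other anchor, Sdhc, stood at 70.3, 89.8, 66.0 and 81.1 RPKM (log2 change 0.32 with SE 0.13, limma adjusted p = 0.11). Here too the groups did not overlap. The flavoprotein Sdha stood at 92.5, 110, 99.7 and 110 RPKM, and the iron-sulphur subunit Sdhb at 98.3, 95.7, 83.0 and 80.0 RPKM. Neither passed, and Sdhb was slightly lower with 4OHT in both genotypes.

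Complex III, which passes electrons from ubiquinol to cytochrome c, had 0 of 8 members called. In limma 2 had an unadjusted p under 0.05, where 4387 of all 9595 genes did. All 8 had a fitted change above 0 (median 0.15, turning to -0.07 with median-ratio scaling). Within the complex the 3 core members had a median change of 0.33 and the 5 small accessory members 0.07. Uqcrc2, a core protein, stood at 108, 150, 99.9 and 123 RPKM (log2 change 0.38 with SE 0.13, limma adjusted p = 0.0756). Its partner Uqcrc1 stood at 147, 187, 125 and 155 RPKM (log2 change 0.33, limma adjusted p = 0.0922). The Rieske iron-sulphur protein Uqcrfs1, the least abundant member, stood at 36.5, 47.3, 43.4 and 50.1 RPKM. Uqcrh, the hinge protein, was the most abundant, at 443, 444, 348 and 358 RPKM, and Uqcrb followed at 337, 361, 241 and 247 RPKM. For both of these the treatments differed by less than the genotypes did.

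Complex IV, cytochrome c oxidase, held the largest change of any member. Cox7a1 encodes the isoform of subunit 7a known from heart and skeletal muscle. It stood at 2.84, 17.9, 2.19 and 14.6 RPKM, that is 36, 241, 27 and 211 reads. Both 4OHT libraries lay far above both EtOH libraries. It rose by 2.30 on the log2 scale (SE 0.14, limma adjusted p = 0.00183), and of the alternatives tried the call was lost only when the EtOH library of delta/delta was left out. Cox7a2, the isoform known as the liver type and used in most tissues, stood at 120, 85.0, 122 and 88.8 RPKM. Both 4OHT libraries lay below both EtOH libraries. It fell by 0.47 on the log2 scale (SE 0.13, limma adjusted p = 0.0395). Cox7a1 made up 2.31% of the RPKM of this pair in EtOH and 17.4% in 4OHT in delta/delta, and 1.76% and 14.1% in delta/+. The sum of the pair was 16.3% lower with 4OHT in delta/delta and 16.5% lower in delta/+, so Cox7a2 remained the larger part. Cox7a2 lost its call without the genotype term, with no filter on low values, with no trend in the prior and with the trends on GC content and length removed.

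**Figure D2:**
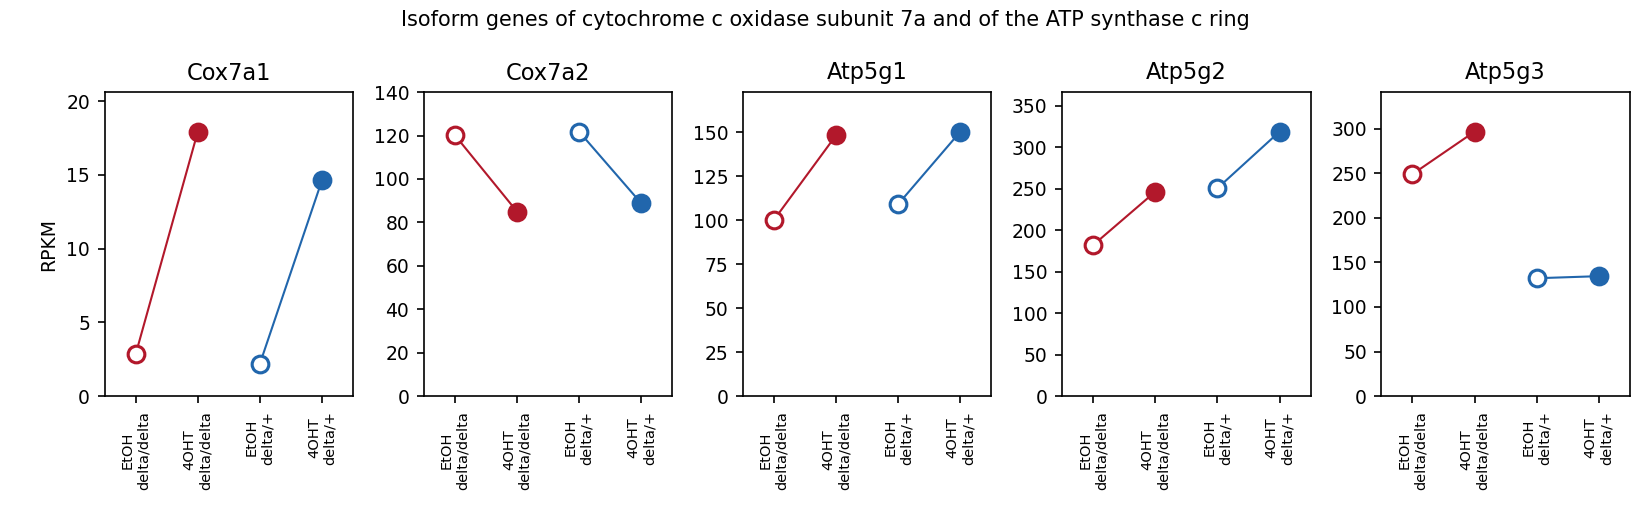
RPKM of Cox7a1, Cox7a2 and the c-ring genes Atp5g1, Atp5g2 and Atp5g3 in each library, with open points for EtOH, filled points for 4OHT, red for Runx1 delta/delta and blue for Runx1 delta/+; lines join the libraries of a genotype and each panel has its own axis from 0. Cox7a1 rises from under 3 RPKM to 17.9 and 14.6 RPKM while Cox7a2 falls from about 120 RPKM to 85.0 and 88.8 RPKM.

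The other isoform genes of complex IV were mostly at the edge of detection. Cox4i2, the isoform of subunit 4 known from lung and from low oxygen, had 1, 22, 4 and 56 reads (0.0398, 0.824, 0.163 and 1.95 RPKM), and so fell under the level set for members. Its reads were higher in both 4OHT libraries, while Cox4i1, the common isoform, stood at 359, 335, 361 and 335 RPKM. Cox6a2, the muscle isoform of subunit 6a, had 1, 2, 6 and 3 reads, against 587, 608, 452 and 493 RPKM of Cox6a1. Cox7b2, Cox8b and Cox8c were listed at 0 in all 4 libraries. Cox6b2, an isoform known from testis, was measured at 24.3, 29.2, 44.9 and 41.1 RPKM, beside 341, 349, 345 and 374 RPKM of Cox6b1. Its share of the pair was between 6.65% and 11.5%. Ndufa4l2, a relative of Ndufa4 induced by low oxygen, had 3, 0, 19 and 0 reads, so it was seen in the EtOH libraries alone.

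Of the 14 members of complex IV, 1 was higher and 1 lower, and the median change was 0.08, which turned to -0.14 with median-ratio scaling. Cox5a, a subunit on the matrix side, stood at 34.3, 54.5, 48.9 and 59.8 RPKM (log2 change 0.47 with SE 0.15, limma adjusted p = 0.0668). Cox4i1, Cox6b1, Cox6c, Cox7b and Cox7c each differed by less than 0.25 between the treatments, though Cox4i1 and Cox7b differed by -0.32 and -0.28 with median-ratio scaling. The lowest members were Cox4nb, named as a subunit of the ER membrane complex by RefSeq, at 6.05, 8.49, 5.51 and 7.38 RPKM, and Cox7a1. Cox7a2l, which helps to join complexes III and IV into supercomplexes, stood at 246, 282, 143 and 140 RPKM and had no call for 4OHT.

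Complex V, ATP synthase, had 2 of 17 members higher and 0 lower, and its median change of 0.17 turned to -0.05 with median-ratio scaling. Atp5g1 is a member of a trio, with Atp5g2 and Atp5g3, that encodes the same mature c subunit of the rotating ring. It stood at 100, 148, 109 and 150 RPKM, and both 4OHT libraries lay above both EtOH libraries. It rose by 0.51 on the log2 scale (SE 0.12, limma adjusted p = 0.0321). Atp5g2 stood at 182, 247, 251 and 319 RPKM (log2 change 0.39 with SE 0.12, limma adjusted p = 0.0547), and its groups overlapped since the delta/+ libraries were higher. Atp5g3 stood at 249, 297, 132 and 135 RPKM (log2 change 0.14, limma adjusted p = 0.44). The summed RPKM of the trio was 30.1% higher with 4OHT in delta/delta and 22.7% higher in delta/+. Atp5sl, the other called member, encodes a factor of complex I assembly named Dmac2 and not a part of ATP synthase. It stood at 7.54, 11.6, 6.88 and 10.9 RPKM, with no overlap of the treatments, and rose by 0.58 (SE 0.14, limma adjusted p = 0.0292). Atp5g1 and Atp5sl both lost their calls with median-ratio scaling, with no filter on low values and without the genotype term.

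In the F1 head, where ATP is made, 0 of 5 members passed. The alpha subunit Atp5a1 stood at 441, 574, 412 and 528 RPKM (log2 change 0.37 with SE 0.11, limma adjusted p = 0.0504), with both 4OHT libraries above both EtOH libraries. The beta subunit Atp5b gave a change of 0.28 (limma adjusted p = 0.111). The gamma subunit Atp5c1, which turns inside the head, stood at 139, 191, 129 and 154 RPKM (log2 change 0.36, limma adjusted p = 0.0869). The small subunits Atp5d, at 280, 278, 175 and 183 RPKM, and Atp5e, at 205, 170, 122 and 133 RPKM, had changes of 0.03 and -0.07. The peripheral stalk genes Atp5f1, Atp5h, Atp5j and Atp5o had changes from -0.04 to 0.25, with 0 calls. Annotated genes named as processed copies exist for Uqcrh, Atp5c1, Atp5k and Atp5l, so the levels of these are uncertain where reads could be shared.

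Summed over a complex, RPKM was 6.84% higher with 4OHT for complex I in delta/delta and 3.46% higher in delta/+. The same sums were 17.4% and 14.5% higher for complex II, 12.9% and 5.61% for complex III, 6.17% and 4.52% for complex IV, and 15.8% and 15.1% for complex V. With median-ratio scaling all 5 sums were lower with 4OHT in place of higher (-0.15, -0.01, -0.10, -0.15 and -0.02 on the log2 scale), so their direction depends on the scaling. The mean log2 ratios of complexes II and V were 0.21 and 0.21, above 0.13 for complex III and 0.07 and 0.08 for complexes I and IV (a library scaling shifts all alike and cannot change this order). The 14 core members of complexes I to III had a median change of 0.23, and the 34 accessory members of complexes I and III 0.09. Relative to all genes these medians lay on opposite sides, also with median-ratio scaling (0.04 above and 0.08 below). No test was made of these sums or medians.

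Most accessory subunits are encoded by short genes (median of 561 bases in complex I, range 349 to 2661), and length went with the change among the members. The 25 members of at least 1000 bases had a median change of 0.23, with 3 higher and 0 lower, and the 54 shorter members 0.10, with 2 higher and 2 lower. Over all genes tested the medians were 0.16 for both length classes. Of 8732 genes of at least 1000 bases 1960 were higher and 905 lower, and of 863 shorter genes 170 and 78. Whether core or accessory roles or length go with the change cannot be told apart from these values. With a trend on GC content and length removed in the fit with the replicate block, 9 members passed, 8 higher and 1 lower, where 34.6% of all genes passed (24.3% higher and 10.4% lower). Of these 9, 6 were among the 7, and Atp5a1, Cox5a and Ndufa12 were added.

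**Figure D3:**
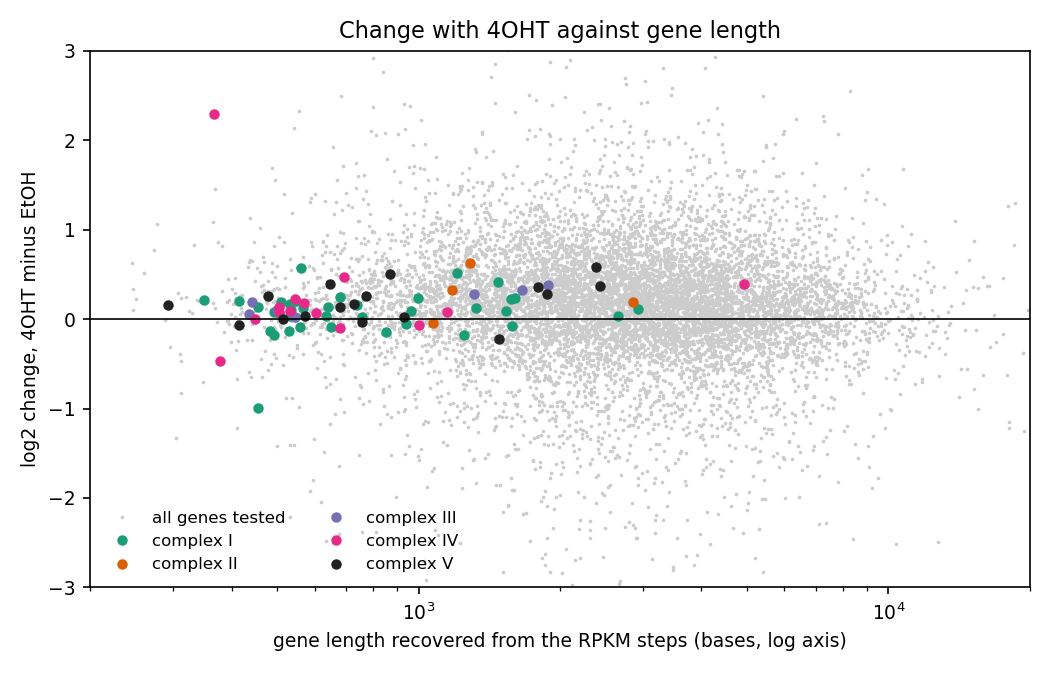
Fitted log2 change with 4OHT against gene length in bases (log axis), with grey dots for all genes tested and coloured points for the members by complex; 59 genes beyond 3 on the vertical axis are not drawn. Most members are short and lie in a narrow band near 0; those of at least 1000 bases have a median of 0.23 and the shorter ones 0.10, and median-ratio scaling shifts all points down.

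The genes that build, feed and regulate the complexes were read from lists by name. In the 5 lists of assembly factors 12 of 47 tested genes were higher with 4OHT and 2 lower, where 22.2% and 10.2% of all genes were, and the median change was 0.31. With median-ratio scaling 9 were higher and 4 lower, and the median was 0.11 against -0.04 for all genes. Of 14 complex I factors 5 were higher and 0 lower. Ecsit, which also serves in innate signalling, stood at 7.29, 15.6, 9.08 and 19.1 RPKM and rose by 0.998 (limma adjusted p = 0.00735). Ndufaf4 stood at 4.56, 10.1, 6.96 and 12.9 RPKM and rose by 0.90 (limma adjusted p = 0.0106). The others were Ndufaf2, Ndufaf5 and Ndufaf6. Of 6 complex III factors 3 were higher, among them Bcs1l, the AAA protein that inserts the Rieske subunit, at 6.75, 14.8, 5.51 and 13.4 RPKM (rose by 1.09, limma adjusted p = 0.00668). Of 19 complex IV factors 3 were higher and 0 lower, but with median-ratio scaling 1 was higher and 2 lower. Cox10, called in both, makes haem O, stood at 4.26, 11.3, 5.51 and 9.99 RPKM and rose by 0.99 (limma adjusted p = 0.0132). Of 4 complex II factors 0 were higher and 1 was lower, Sdhaf4. Of the 4 genes for complex V, Tmem70 rose by 0.72, and Atpif1 fell by 0.42 (SE 0.10, limma adjusted p = 0.0305). Atpif1 encodes the inhibitor of ATP synthase, stood at 1084, 808, 846 and 634 RPKM, and is known to serve haem synthesis in red cell precursors, whose markers were lower with 4OHT as given above; their part in this was not tested.

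Of the 5 subunit and cytochrome c genes that the name rule misses, 2 were higher and 0 lower, against 22.2% and 10.2% of all genes. Cycs, cytochrome c itself, stood at 51.9, 78.5, 57.5 and 76.7 RPKM and rose by 0.50 (limma adjusted p = 0.0414). Ndufab1, the mitochondrial acyl carrier protein within complex I, rose by 0.50 (limma adjusted p = 0.0459). Both lost their calls with median-ratio scaling. Of 6 carriers and porins that move ATP and phosphate 4 were higher (Slc25a3, Slc25a4, Slc25a5 and Vdac1) and 0 lower, against 22.2% and 10.2% of all genes. Slc25a4 alone kept its call with median-ratio scaling, and stood at 12.1, 19.0, 42.2 and 82.5 RPKM.

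Of 21 tested genes of pyruvate dehydrogenase and the citric acid cycle, 9 were higher and 2 lower, where 22.2% and 10.2% of all genes were, and with median-ratio scaling 8 and 3, where 15.3% and 17.4% were. Idh3a, a subunit of isocitrate dehydrogenase, stood at 21.7, 51.2, 32.9 and 70.5 RPKM and rose by 1.14 (SE 0.13, limma adjusted p = 0.00591). Cs, citrate synthase, stood at 109, 175, 118 and 193 RPKM and rose by 0.69 (limma adjusted p = 0.0136). The 2 that fell were the pyruvate dehydrogenase kinases Pdk1, at 5.53, 1.91, 20.7 and 10.7 RPKM, and Pdk2, at 15.6, 6.22, 6.69 and 4.31 RPKM. Pdk1 fell by 1.03 and Pdk2 fell by 0.87 (limma adjusted p = 0.00861 and 0.0274). Pdk3, another of these kinases and more abundant than Pdk1 and Pdk2 in every library, was not called (log2 change 0.19, limma adjusted p = 0.432). Pdk4 was too low to be tested, so the fall covers Pdk1 and Pdk2 and not the kinases as a group. All of them are known to switch pyruvate dehydrogenase off.

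Of 16 tested regulators of mitochondrial biogenesis 6 were higher and 1 lower, beside the same 22.2% and 10.2% of all genes, and with median-ratio scaling 5 and 2, beside 15.3% and 17.4%. Esrra, the oestrogen-related receptor alpha, stood at 8.59, 18.8, 8.67 and 18.1 RPKM and rose by 1.01 (SE 0.14, limma adjusted p = 0.00715). Of its coactivators Ppargc1b rose by 1.19, with 0.807, 3.81, 1.19 and 3.30 RPKM (adjusted p by limma = 0.0113), and Ppargc1a was at 0 or nearly so in every library. The related Pprc1 rose by 0.90, and Peo1 (Twinkle, the mitochondrial DNA helicase) by 0.95 (limma adjusted p = 0.00941 and 0.00874). Polrmt and Tfb2m, of mitochondrial transcription, were also higher. Polg, the catalytic subunit of the mitochondrial DNA polymerase, stood at 14.2, 6.85, 13.9 and 4.39 RPKM and fell by 1.21 (limma adjusted p = 0.00847). The factors whose motif letters were searched for did not pass, though Nrf1 passed as lower with median-ratio scaling: Nrf1 stood at 20.3, 15.97, 14.7 and 12.05 RPKM, Gabpa at 20.8, 18.2, 22.2 and 22.5 RPKM and Yy1 at 32.2, 50.01, 29.4 and 33.3 RPKM.

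**Figure D4:**
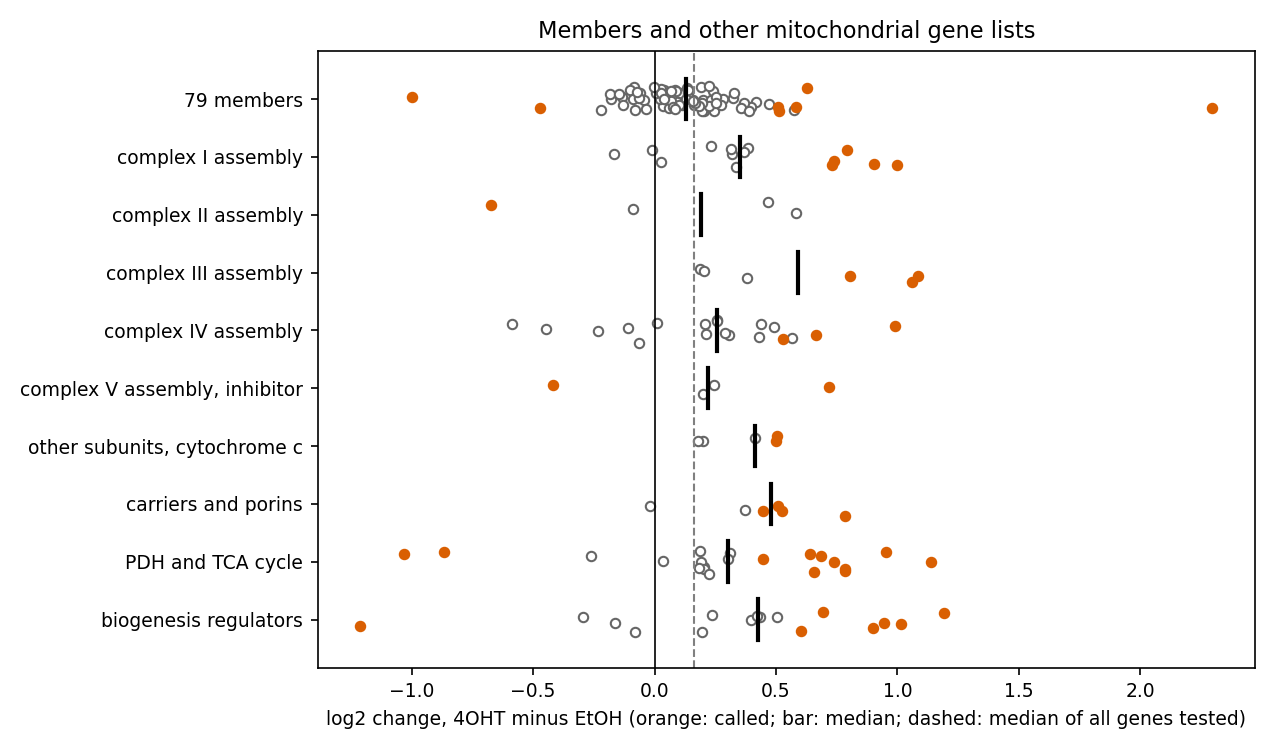
Fitted log2 change with 4OHT of the members and of the genes in each mitochondrial list (horizontal axis), with orange points for genes that passed the test, open points for the rest, a bar at each median and a dashed line at the median of all genes tested. The members cluster closely around 0.13, while the lists of regulators, carriers and complex III factors have medians of 0.43, 0.48 and 0.59; median-ratio scaling turns the median of the members negative and leaves those of these lists above 0.

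The second comparison, of the genotypes, sets the 2 libraries of Runx1 delta/delta beside the 2 of delta/+. Each genotype is 1 replicate number, so genotype cannot be told apart from whatever else differed between the replicates. Of the 79 members 12 passed, 11 higher in delta/delta and 1 lower, where 11.6% of all genes passed (4.68% higher and 6.91% lower). The median difference of the members was 0.17, against -0.03 for all genes. With median-ratio scaling 19 members passed, 15 higher and 4 lower, where 19.1% of all genes passed (10.4% higher and 8.62% lower). With genotype as the only term (no treatment term), or with no filter on low values, 0 members and 0 of all genes passed for this comparison in limma. An unadjusted p under 0.05 was reached by 17 and 25 members in these 2 fits, against 880 of 9595 and 3906 of 17213 genes. Complex I held 7 of the 11, among them Ndufs6, a zinc-binding subunit, at 210, 226, 102 and 114 RPKM. Both delta/delta libraries lay above both delta/+ libraries (log2 difference 1.01, SE 0.12, limma adjusted p = 0.0195). Ndufa1, an X-linked subunit of the membrane arm, stood at 304, 250, 140 and 133 RPKM (1.01, limma adjusted p = 0.0204), and Ndufb10 at 202, 227, 118 and 110 RPKM (0.90, limma adjusted p = 0.0273). Atp5g3 of the c ring (1.02, limma adjusted p = 0.0204) and Cox7a2l (0.89, limma adjusted p = 0.026) were likewise higher in delta/delta. The others were Ndufa6, Ndufb9, Ndufb11, Ndufs5, Uqcrb and Atp5d. Cox7c, a small subunit of complex IV, was lower in delta/delta, at 72.6, 72.8, 119 and 120 RPKM (-0.71, SE 0.13, limma adjusted p = 0.0334). Cell type markers also differed between these libraries. Of 20 erythroid markers 7 were higher in delta/delta and 1 lower, with Slc4a1 at 918, 14.0, 181 and 3.15 RPKM and Klf1 at 305, 145, 144 and 65.3 RPKM, and their summed RPKM was 66214 and 5549 in delta/delta against 35813 and 3939 in delta/+. Of 4 tested neutrophil markers 2 were higher (S100a8 and S100a9), and of 2 monocyte and macrophage markers 1 (Lyz2). Ly6c2, the 1 tested marker that the sort gated out, was higher too (log2 difference 1.30, limma adjusted p = 0.0378). Lower were 2 of 6 progenitor markers (Flt3 and Ptprc), 1 of 8 megakaryocyte markers (Pf4) and the 1 tested stromal and endothelial marker (Pecam1). Of 7 mast cell and basophil markers and the 1 B and T cell marker 0 passed. The part of these cells in the difference of the members was not tested.

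**Figure D5:**
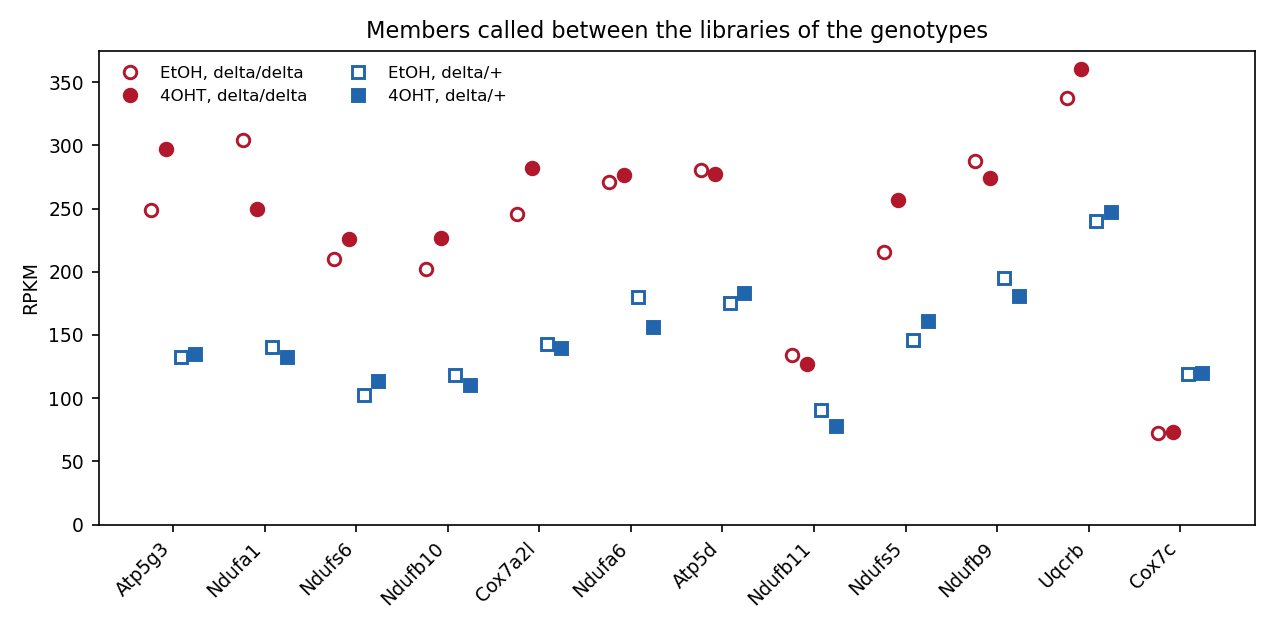
RPKM of the 12 members that passed between the genotypes, with open points for EtOH and filled points for 4OHT, circles for Runx1 delta/delta and squares for Runx1 delta/+. For each gene the pair of one genotype lies wholly above that of the other: delta/delta is above in 11 and below for Cox7c. The genes were chosen by this same comparison, which favours such separation, so it is no further result.

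Length went with this difference too, among the members and beyond them. Over all genes tested, those under 1000 bases had a median difference of 0.15 and the longer ones -0.05. Among the members the medians were 0.22 for those under 1000 bases and 0.10 for the longer ones. Of the 12 called members 11 were under 1000 bases, as were 54 of all 79 members. Over all genes tested 110 were higher in delta/delta and 30 lower of 863 under 1000 bases, and 339 and 633 of 8732 longer ones. Cox7a2l was longer, at 1149 bases. With GC content and length trends removed in the fit with the replicate block, 9 members passed, 6 higher and 3 lower, where 6.01% of all genes passed (3.33% higher and 2.68% lower), and the median of the members was 0.04. The 6 higher ones, Atp5g3, Cox7a2l, Ndufa1, Ndufb10, Ndufs6 and Uqcrb, were all among the 11. Libraries were made with either of 2 kits, and the kit of each library is not known here.

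The called members had like changes in both genotypes, which the test itself requires, since its only residual is the difference between the genotypes' responses. Cox7a1 differed by 2.30 and 2.29, Cox7a2 by -0.49 and -0.45, Sdhd by 0.57 and 0.68, and Ndufb4 by -1.19 and -0.81, in delta/delta and delta/+. With 1 library per combination the difference between the responses has 0 degrees of freedom and was not tested. By Kal's Z-test in the authors' deposited table, a test of single libraries, 7 members were higher and 1 lower at a corrected p under 0.05 in replicate 1, and 2 higher and 0 lower in replicate 2. Those of replicate 1 were Atp5a1, Atp5b, Atp5c1, Atp5g1, Atp5g2, Cox7a1 and Ndufa12, and Ndufb4 as lower. Those of replicate 2 were Atp5a1 and Atp5o, which limma did not call. Of the members called by limma, Atp5g1, Cox7a1 and Ndufb4 passed in replicate 1 alone, and Sdhd, Cox7a2, Ndufa10 and Atp5sl in neither. Over all rows of the authors' deposited table the numbers were 631 and 293 in replicate 1 and 221 and 223 in replicate 2.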

How the data were processed

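Per the labels, total RNA of sorted cells was sequenced from 4 libraries made with a TruSeq or a NEBNext kit. The build is mm 9 per the submitters' processing notes. The sources used here do not give the aligner, the counting rule, the annotation or whether strand was used. Per the file headers, the authors deposited RPKM for each library, replicates kept apart, and for each replicate number Kal's Z-test for 4OHT and EtOH with its p-value, its correction for multiple tests and a proportions fold.

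Whole reads and gene lengths were recovered from the steps of the RPKM values for 17212 of 17213 genes above 0 (tolerance 0.02 reads), giving 34.6, 36.7, 33.7 and 39.4 M mapped reads. The members and lists were chosen with earlier results of these data known. limma 3.58.1 in R 4.3.3 was fitted to log2(RPKM + 1) of the 9595 genes averaging at least 1 RPKM. The model had terms for treatment and genotype and a trended prior, and two-sided p-values were adjusted by Benjamini-Hochberg over all genes at 0.05. Changes on this scale understate those of low genes. Genotype equals the replicate number. The labels give genotype as a factor, so it entered the model; the deviations of same-numbered libraries from the group means correlated across genes (0.664). There was 1 residual degree of freedom, and the prior contributed 4.37 more. P-values measure only the spread between these samples, which may be technical. Correlations between libraries ran from 0.869 to 0.964.

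All members could be named by the rule, with full statistics for up to 4 called members per direction in each complex, the 2 highest and 2 lowest by level, the isoform genes, up to 6 called members between genotypes, and up to 4 called genes of a list by p; members named beyond these were picked with their values in view. There were 10 pathway lists of 113 genes, 100 of them in the table (20 through an older symbol), and 9 marker lists. Sequences came from RefSeq tables by symbol. The fit was tested on simulated data, in 10 runs with 200 changed genes each, fewer than were called in the data. It recovered 85.5% of changes of 1 on the log2 scale and 12.5% of those of 0.5. Of its calls 4.86% were false. The simulated noise was normal and independent, with a spread set by the level of a gene and not by the gene itself. These shares hold for that setting and may differ in the data. Changes near 0.5 that did not pass could still have been missed. Alternatives were pseudocounts of 0.1 and 5, no filter and a mean of at least 5 RPKM, median-ratio scaling, scaling without erythroid genes, GC and length trends removed, no replicate block, no trend in the prior, and each library left out.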

Additional observations from a re-analysis of the deposited data

Results flagged for a closer look

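For 8 members the 2 genotypes moved opposite ways with 4OHT, each by at least 0.1 on the log2 scale. With 1 library per combination of treatment and genotype these differences were not tested. The log2 ratio of 4OHT to EtOH was higher in Runx1 delta/delta than in delta/+ by 0.62 for Ndufc1, 0.50 for Ndufb6 and 0.27 for Ndufb10, accessory subunits of complex I, by 0.44 for Uqcr11 of complex III, and by 0.38 for the isoform gene Cox6b2 of complex IV. For the other 3 the difference was negative: -0.39 for Ndufa11 of complex I, and -0.39 for Atp5e and -0.27 for Atp5l of complex V.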

How the results depend on the processing

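Of 7 members called for 4OHT, all remained called with either pseudocount and with a mean of at least 5 RPKM. The number fell to 3 with no filter on low values and to 3 with median-ratio scaling. Of all genes 13.3% and 32.6% passed in these fits, against 32.4% in the main fit. With a library left out a group holds 1 library and the fits have the treatment term only, so no number of calls is given for them. Replicate numbers and genotypes coincide, so the replicate block is the genotype term. Without the block 1 member was called for 4OHT, where 2.43% of all genes were. With genotype alone, that is without the treatment term, 0 members and 0 of all genes were called between genotypes. Of 12 members called between genotypes, 0 remained with no filter, where 0 of all genes passed, and 7 with no trend in the prior, where 11.2% did. Median-ratio scaling gave 19, where 19.1% of all genes passed. The log2 ratios of summed RPKM for complexes I to V moved to -0.150, -0.0097, -0.0957, -0.148 and -0.0155 with median-ratio scaling, and without erythroid genes in the scaling to 0.0121, 0.153, 0.0668, 0.0149 and 0.147. With each replicate number alone they ran from 0.05 to 0.10 (I), 0.20 to 0.23 (II), 0.08 to 0.18 (III), 0.06 to 0.09 (IV) and 0.20 to 0.21 (V). Over 43 values the alternatives left 391 on the same side of the threshold and in the same direction; 131 were no longer past it, 1 passed newly, 35 moved and 0 called values reversed. Depth limits the rare isoforms, Cox7a1 in EtOH (36 and 27 reads) included, and 1 residual degree of freedom limits small changes. The cause of these shifts was not tested.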

Other observations

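Markers of other cell types were read beside the members, where 22.2% of all genes tested were higher with 4OHT and 10.2% lower. Of 8 tested megakaryocyte markers 1 was higher and 6 were lower with 4OHT. Of 7 tested markers of mast cells and basophils 3 were higher and 0 lower, with a summed RPKM of 54.9, 178, 89.4 and 65.7 in the order used above. Of 6 tested markers of leukaemic progenitors 3 were higher and 1 was lower. Of 4 tested neutrophil markers 0 were higher and 1 was lower. Of 2 tested monocyte and macrophage markers and the 1 tested B and T cell marker 0 passed; Cx3cr1, Ms4a1, Pax5 and Cd3e were at 0 in every library. The 1 tested marker of stromal and endothelial cells was higher, and Cdh5 was at 0. Of the markers that the sort gated out, 1 was tested, Ly6c2. It did not pass for 4OHT, but was called higher in delta/delta as given above. Itgam stayed under 0.4 RPKM.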
